A study of Mus musculus with 10 samples.

Results

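A group of 10 genes that encode transcription factors and chromatin regulators of blood stem and progenitor cells were followed in mouse fetal livers that lack Zfp36l2. The genes were Mecom, Hlf, Meis1, Hoxa9, Hoxa7, Mllt3, Gata2, Myb, Mycn and Sox4. They were read as every probe set of the deposited table whose platform annotation gives exactly 1 gene symbol that is on this list. That rule returned 30 probe sets for 10 genes, out of 45037 probe sets and 18193 genes with a probe set of their own.

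The samples were 10 single mouse fetal livers of embryonic day 14.5, 1 per array. The labels give 5 as Zfp36l2 knockout (KO) and 5 as wild type (WT). Both genotypes shared a mixed background of b6 and 129, and no treatment is labelled for either. The protein lost in the knockout belongs with tristetraprolin and promotes the decay of mRNAs that carry AU-rich elements. The sources used here give neither the allele, nor the deleted part of the gene, nor the litters. RNA came from whole liver, a mixture in which blood-forming cells, hepatoblasts, endothelial cells and stromal cells are measured together.

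Blood stem cells depend on a small set of nuclear factors that keep them undifferentiated and able to divide. MECOM, HLF and the pair of HOXA9 with its partner MEIS1 act near the top of this network, GATA2 and MYB hold progenitors in an expandable state, and MLLT3 keeps transcription going as a subunit of the super elongation complex. In the fetal liver these cells expand during this stage, and they are rare beside the erythroid cells that fill the organ. The comparison asks whether the transcripts of these factors differ when Zfp36l2 is missing.

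The brightest Zfp36l2 probe set (1437626_at) read 108, 82.3, 109, 103 and 108 in KO livers 1 to 5, against 396, 397, 596, 391 and 389 in WT livers. Every KO liver lay below every WT liver (log2 difference -2.08 ± 0.13, SE; limma adjusted p = 1.47e-06). The other tested Zfp36l2 probe set (1451034_at) was dim and overlapped, averaging 25.05 ± 7.77 in KO livers and 31.4 ± 10.8 in WT livers (SD, n = 5 each; log2 difference -0.25, limma adjusted p = 0.858). Where either probe set lies relative to the deletion is not known here, and only 1437626_at set the labelled genotypes apart.

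Sequence is described here ahead of levels, because several members belong to families with well-known binding letters. All 10 members matched the RefSeq promoter table (GRCm38.p6), with 13 annotated starts among them. The 250 bases before each start were searched on both strands for letters of 4 families. These were AGATAA for the GATA factors, CACGTG for the MYC factors, TAACNG for MYB and TGACAG for the MEIS factors. No match overlapped a match of another motif. TAACNG matched 3 of the 13 member promoters (23.1%), against 19.8% of all 32851 promoters of the same length. TGACAG matched 2 of 13 (15.4%), against 15.9% of all promoters. AGATAA and CACGTG matched 0 of 13, where 9.99% and 6.02% of all promoters hold them. Only the letters given were counted, so the 0 does not cover variants such as TGATAA. The member shares thus lay near those of all promoters. The matches are shown because they are the places where these letters of one member's family stand before the start of another member. Each is written 5′ to 3′ on the strand of the gene, with the matched letters in capitals and 20 bases on either side.
Meis1, MYB letters, chr11:19018974-19019019, minus strand: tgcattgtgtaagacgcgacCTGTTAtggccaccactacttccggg
Mllt3, MYB letters, chr4:88033518-88033563, minus strand: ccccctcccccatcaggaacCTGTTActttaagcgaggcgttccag
Mycn, MYB letters, chr12:12941847-12941892, minus strand: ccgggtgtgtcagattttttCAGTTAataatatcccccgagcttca
Mecom, MEIS letters, chr3:30013265-30013310, minus strand: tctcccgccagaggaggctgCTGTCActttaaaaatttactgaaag
Mllt3, MEIS letters, chr4:87806348-87806393, minus strand: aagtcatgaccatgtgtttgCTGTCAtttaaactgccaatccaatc
The MYB letters end 24 bases before the Meis1 start, 30 before the Mycn start and 130 before the Mllt3 start. The MEIS letters end 80 bases before a Mecom start and 44 before another Mllt3 start. A match describes letters and is not a measured binding site. The promoter of Myb itself held none of the 4 motifs and 40 CpG pairs, a count that 98.9% of all promoters do not exceed, while that of Hoxa9 held 3.

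None of the members passed the test between KO and WT livers. Of the 10 genes, 9 had a probe set that passed the filter on dim values, and limma called 0 of these 9 at an adjusted p under 0.05. Hoxa9 is among the 9 although it was at background in most livers. In the whole table it called 42 of 12821 genes (0.328%), 20 higher (0.156%) and 22 lower (0.172%) in KO livers. A count of 0 among 9 lies near that background and is no result about the members. Over probe sets, 0 of 24 tested members were called (0.211% of all probe sets), and 0 of 24 had an unadjusted p under 0.05, against 9.75% of all 27022 tested probe sets. The lowest unadjusted limma p among them was 0.0948 and the lowest exact permutation p 0.0794, where 5 against 5 livers can reach 0.00794. The KO and WT livers overlapped on every one of the 24, while 2.27% of all tested probe sets showed no overlap.

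By its brightest probe set, each of 6 genes had a log2 difference above 0 and each of 3 below 0, with a median of 0.02. All genes tested had a median of 0.00018 and 50.1% above 0. Over all 24 tested probe sets of the members, 9 were above 0 and 15 below, and the sign of several small differences turned under other settings. The brightest probe sets ran from -0.44 to 0.27, where the low end is Hoxa9, which was at background and has no direction of its own, and the next is Meis1 at -0.38. The 10th to 90th percentile of all genes ran from -0.29 to 0.34. Intensities below are in the array's linear units after quantile normalization. Log2 differences are KO minus WT, taken after values under 16 were set to 16, so a difference that involves such values depends on that floor in size and can depend on it in sign. Intervals are limma's 95% intervals of a single comparison, and p-values are two-sided. Intensities of different probe sets are not compared as levels, because probes bind with different strength. In whole liver, fewer cells of a type and less RNA per cell cannot be told apart.

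**Figure D1:**
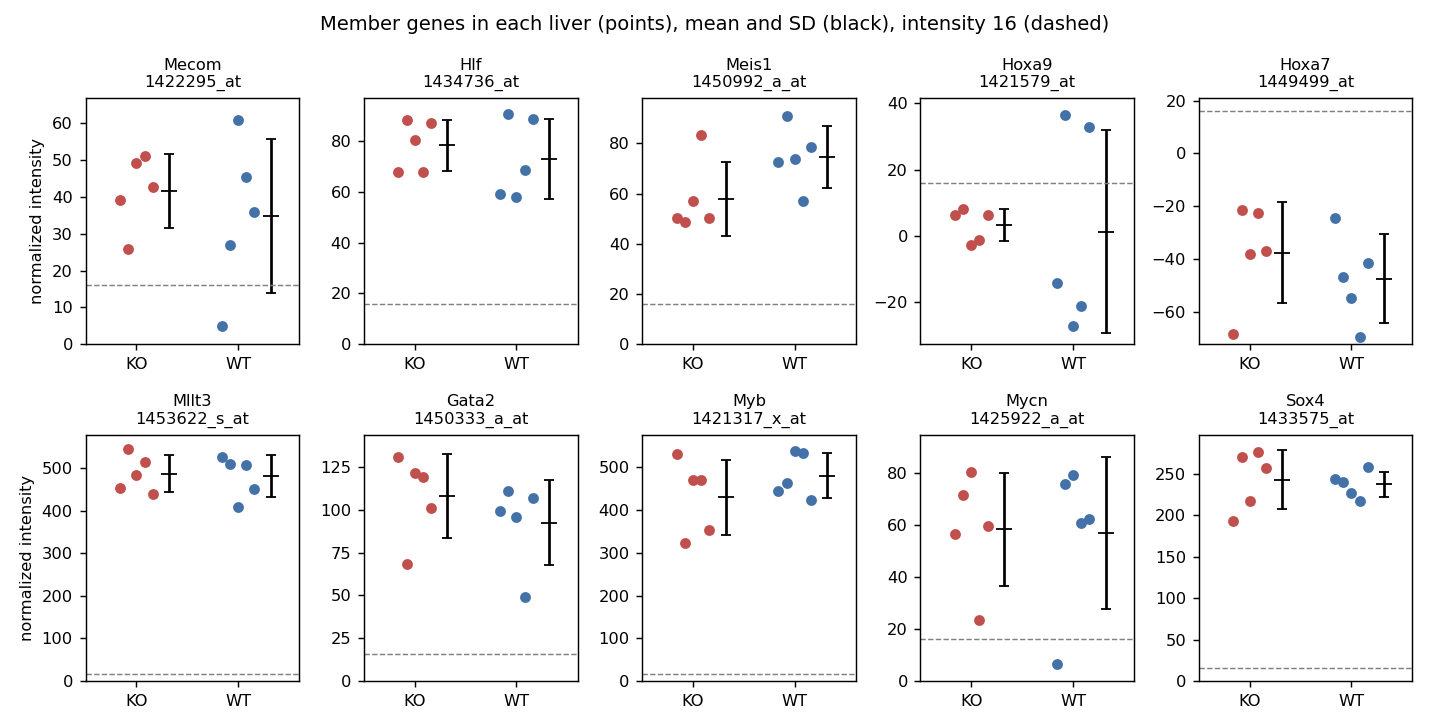
Normalized intensity of the brightest probe set of each member (y axis, linear units) in the 5 KO livers (red, left) and the 5 WT livers (blue, right), with the mean and SD in black and the intensity of 16 as a dashed line. The KO and WT livers overlap in every panel, and all 10 livers lie below 0 for Hoxa7.

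Mecom encodes a zinc finger factor that long-term stem cells need. Hlf encodes a PAR bZIP factor that, among blood cells only, is largely restricted to them. The brightest Mecom probe set (1422295_at) read 39.2, 25.9, 49.2, 51.03 and 42.8 in KO livers 1 to 5, against 4.85, 26.99, 60.9, 45.3 and 36.02 in WT livers. WT liver 1 was the single liver under 16, and WT liver 3 the highest of all 10. The log2 difference was 0.27 ± 0.34 (SE, n = 5 livers each; limma adjusted p = 0.868; exact permutation p = 0.516), with an interval from -0.46 to 1.001, or KO over WT ratios from 0.725 to 2.001. Without WT liver 1 the difference was 0.0009. A dimmer Mecom probe set (1438325_at) averaged 30.3 ± 10.6 in KO livers and 23.1 ± 8.31 in WT livers (SD, n = 5 each; log2 difference 0.34, limma adjusted p = 0.787). The remaining Mecom probe set was under 16 in 4 KO livers and all 5 WT livers and was not tested.

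Hlf was read at similar intensity in both genotypes. Its brightest probe set (1434736_at) gave 67.95, 88.5, 80.7, 67.8 and 87.3 in KO livers 1 to 5, against 59.4, 90.8, 58.1, 68.7 and 88.7 in WT livers. The KO livers lay inside the range of the WT livers. The log2 difference was 0.12 ± 0.20 (SE; limma adjusted p = 0.907), and its interval covered KO over WT ratios from 0.811 to 1.45. The other Hlf probe set (1434735_at) averaged 51.8 ± 5.75 in KO livers and 49.9 ± 12.2 in WT livers (SD, n = 5 each), a log2 difference of 0.08.

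Meis1, a TALE homeodomain protein that binds DNA together with HOX and PBX partners, had the largest difference among members read above 16 in every liver by their brightest probe set. That probe set (1450992_a_at) read 50.1, 48.7, 56.9, 83.4 and 50.4 in KO livers 1 to 5, against 72.4, 91.06, 73.9, 57.1 and 78.5 in WT livers. In this reading 4 KO livers lay below all WT livers, whose lowest was WT liver 4, while KO liver 4 stood above 4 of the WT livers. Averages were 57.9 ± 14.6 in KO livers and 74.6 ± 12.2 in WT livers (SD, n = 5 each). The log2 difference of -0.38 ± 0.22 (SE) did not pass (limma unadjusted p = 0.0993, adjusted p = 0.613; exact permutation p = 0.0794). Its interval ran from -0.84 to 0.08, or ratios of 0.557 to 1.06.

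The dimmer Meis1 probe sets differed in direction from each other. One (1443260_at) gave 0.26 (limma adjusted p = 0.888) with 2 KO and 4 WT livers under 16, and the other (1459423_at) gave -0.07 (adjusted p = 0.97) with 3 livers of each genotype under 16. Meis1 is also made in megakaryocytes, the platelet-forming cells, whose marker list moved between the genotypes. The summed intensity of its 13 genes on the array was 1984 to 3177 in KO livers and 4549 to 6575 in WT livers. None of these 13 was under 16 in every liver, all 13 had log2 differences below 0 (median -1.11), and 8 fell, among them Pf4, Ppbp, Plek and Gp5 at -1.39, -1.38, -0.98 and -1.59 (limma adjusted p = 0.000107, 0.000146, 0.00362 and 0.0240). Over all genes tested, 0.172% were called lower. By brightest probe set, 6 members were above 0 and 3 below 0, with Hoxa9 of these at background. Over all 24 tested member probe sets, 9 were above 0 and 15 below. The list's part in the values of Meis1 or of other members was not tested.

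Hoxa9 and Hoxa7, homeodomain factors whose genes are neighbours in the HoxA cluster, were at background on these arrays. The Hoxa9 probe set that was tested (1421579_at) read 6.39, 8.01, -2.86, -1.22 and 6.16 in KO livers 1 to 5, against -14.2, 36.4, -27.3, -21.1 and 32.7 in WT livers. It passed the filter on dim values only through WT livers 2 and 5, and with values under 16 set to 16 its log2 difference was -0.44 (limma adjusted p = 0.653). Before that step the means were 3.30 in KO livers and 1.30 in WT livers and the medians 6.16 in KO livers and -14.2 in WT livers, the opposite order, so the sign of the log2 difference comes from the floor and no direction is given. The other Hoxa9 probe set reached 17.4 in KO liver 4 and stayed under 16 in the others. The Hoxa7 probe set (1449499_at) was below 0 in every liver, from -68.4 to -21.4 in KO livers and from -69.7 to -24.3 in WT livers.

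Mllt3 was the member measured with the smallest error. It encodes a subunit of the super elongation complex and is a common fusion partner of KMT2A in leukaemia. Its brightest probe set (1453622_s_at) read 454, 545, 485, 515 and 439 in KO livers 1 to 5, against 527, 509, 409, 509 and 453 in WT livers. The averages of 488 ± 43.5 in KO livers and 481 ± 49.4 in WT livers (SD, n = 5 each) gave a log2 difference of 0.02 ± 0.09 (SE, limma adjusted p = 0.968). The interval bounds the KO over WT ratio between 0.893 and 1.15. The other Mllt3 probe sets (1431890_a_at and 1429205_at) gave -0.08 and -0.06 (limma adjusted p = 0.877 and 0.915), with ratios bounded between 0.806 and 1.11 and between 0.821 and 1.12. The s in the name of the brightest set marks probes that may also bind related transcripts.

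Gata2, a zinc finger factor of stem cells, early progenitors and mast cells, was read in all livers by its brightest probe set (1450333_a_at). Values were 131, 68.1, 121, 119 and 101 in KO livers 1 to 5, against 99.01, 111, 95.5, 49.3 and 107 in WT livers. Here 3 KO livers stood above every WT liver, and 1 liver of each genotype, KO liver 2 and WT liver 4, lay well below the rest. The log2 difference was 0.25 ± 0.24 (SE; limma adjusted p = 0.806), with ratios from 0.835 to 1.68 inside the interval. Without WT liver 4 the difference was 0.0338, and without KO liver 2 it was 0.403, so its size depended on single livers. The dimmer probe set (1428816_a_at) averaged 30.4 ± 18.1 in KO livers and 31.2 ± 4.93 in WT livers (SD, n = 5 each; log2 difference -0.06).

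Gata2 is shared with mast cells and basophils, whose markers were read beside it in a list that also holds eosinophil genes. The 10 genes of that list on the array summed to 472 to 1114 in KO livers and 225 to 556 in WT livers, ranges that overlapped, and 2 of the 10 were under 16 in every liver. Of 6 tested, 5 had differences above 0, with a median of 0.71, and 1 rose, Epx, the eosinophil peroxidase (limma adjusted p = 0.0285), which was under 16 in 2 WT livers. Over all genes tested, 0.156% were called higher. The list sum was lowest among KO livers in KO liver 2 (472), the KO liver with the lowest Gata2 value. In WT liver 4, with the lowest Gata2 value of all, the sum of 263 lay between those of the other WT livers. Its part in the Gata2 values was not tested.

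Myb, which progenitors need for definitive blood formation, was covered by 3 probe sets, all read above 16 in every liver. The brightest (1421317_x_at) gave 530.4, 324, 471, 471 and 354 in KO livers 1 to 5, against 444, 465, 539, 534 and 423 in WT livers. KO livers 2 and 5 lay below every WT liver, and the other KO livers lay within the WT range. The same probe set averaged 430.0 ± 87.3 in KO livers and 481 ± 52.9 in WT livers (SD, n = 5 each), a log2 difference of -0.18 ± 0.12 (SE; limma adjusted p = 0.693) with ratios from 0.735 to 1.06.

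The other Myb probe sets pointed the same way without passing. The set 1450194_a_at read 307, 206, 276, 298 and 232 in KO livers 1 to 5, against 267, 289.6, 251, 309.9 and 284 in WT livers (log2 difference -0.10, limma adjusted p = 0.841). KO livers 2 and 5 were again the lowest of all 10. The set 1422734_a_at averaged 74.7 ± 20.1 in KO livers and 83.4 ± 17.2 in WT livers (SD, n = 5 each; log2 difference -0.19, limma adjusted p = 0.860). Here KO liver 2 (41.3) was the lowest of the 10, while KO liver 5 (89.9) was the next to highest KO liver. All Myb probe sets read the same gene in the same RNA, so their shared direction counts as 1 observation. Without KO liver 2 the log2 differences were -0.083 (1421317_x_at), -0.017 (1450194_a_at) and 0.011 (1422734_a_at), so the shared direction did not hold without that liver. The x in the name of the brightest set marks probes that may bind unrelated transcripts.

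Mycn, the MYC family member that acts with MYC in stem cell growth, varied more between livers than between genotypes. Its brightest probe set (1425922_a_at) read 56.5, 71.6, 80.5, 23.5 and 59.7 in KO livers 1 to 5, against 6.56, 75.8, 79.1, 60.9 and 62.5 in WT livers. KO liver 4 and WT liver 1 lay far below the others. The log2 difference was 0.06 ± 0.43 (SE; limma adjusted p = 0.980), and its interval spanned ratios from 0.558 to 1.96. Another probe set (1417155_at) averaged 49.2 ± 18.3 in KO livers and 56.6 ± 23.4 in WT livers (SD, n = 5 each; log2 difference -0.18). There WT liver 1 read 84.1, the highest of the 10, although it was the lowest on the brightest probe set. KO liver 4, at 26.3, was the lowest of the 10 there and also the lowest KO liver on the brightest probe set. The 2 probe sets thus ordered WT liver 1 oppositely and KO liver 4 alike, and the remaining one (1425923_at) was under 16 in 3 livers of each genotype.

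Sox4, an SRY-type factor of early lymphoid and other progenitors that is also made outside the blood lineage, had 8 probe sets, of which 5 were tested. The brightest (1433575_at) read 194, 270.4, 218, 277 and 258 in KO livers 1 to 5, against 245, 239.9, 227, 218 and 258 in WT livers. KO livers 2 and 4 were above every WT liver, and KO livers 1 and 3 were below all of them. KO liver 3 was so only narrowly, at 217.79 against 217.89 in WT liver 4. The averages of 243 ± 36.01 in KO livers and 238 ± 15.6 in WT livers (SD, n = 5 each) gave a log2 difference of 0.02 ± 0.11 (SE; limma adjusted p = 0.970), with ratios between 0.865 and 1.20. The other 4 tested probe sets had log2 differences below 0, from -0.55 to -0.21.

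Of those 4 dimmer sets, only 1419157_at was above 16 in all livers. It read 24.01, 41.3, 28.4, 51.2 and 35.5 in KO livers 1 to 5, against 46.7, 59.8, 39.5, 46.96 and 38.2 in WT livers (log2 difference -0.39, limma adjusted p = 0.687). There 3 KO livers lay below all WT livers. The set with the lowest unadjusted p of all members (1419156_at, 0.0948) had 4 KO livers and 1 WT liver under 16. Its adjusted p was 0.607, and its difference of -0.55 is a difference between values at or near background. The Sox4 probe sets thus gave different directions, and the brightest bounds the change most closely.

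**Figure D2:**
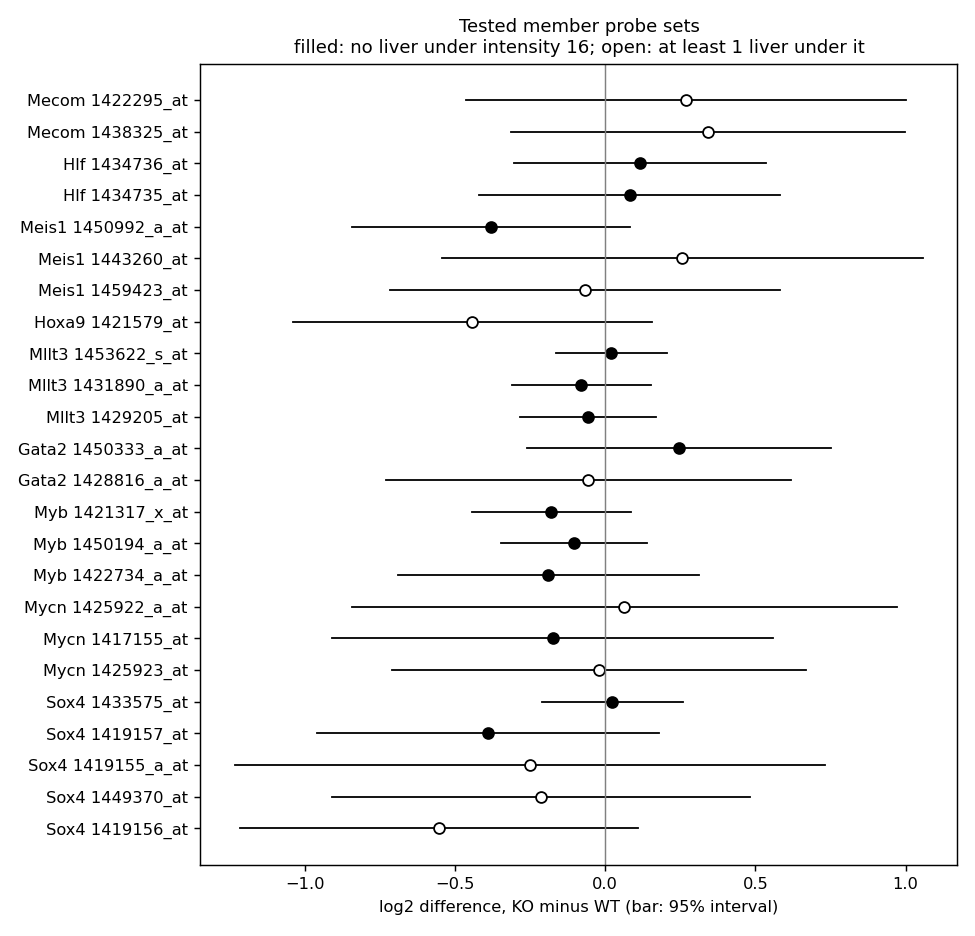
Log2 difference, KO minus WT, of the 24 tested member probe sets (x axis) with limma's 95% interval as a bar. Filled points had no liver under an intensity of 16 and open points had at least 1. Every interval includes 0, and the narrowest belong to Mllt3, Sox4 (1433575_at) and Myb.

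The members were measured with unequal precision. No liver was under 16 on 13 of the 24 tested probe sets, and at least 1 was on the other 11. Standard errors of the brightest probe sets ran from 0.09 for Mllt3 to 0.43 for Mycn, with a median of 0.22, against a median of 0.18 over all genes tested. The widest interval on a member, that of Sox4 1419155_a_at, allowed ratios from 0.425 to 1.66. The intervals of the brightest probe sets held KO over WT ratios of 0.893 to 1.15 for Mllt3, 0.865 to 1.20 for Sox4 and 0.735 to 1.06 for Myb. They held 0.558 to 1.96 for Mycn and 0.725 to 2.001 for Mecom.

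Across livers the members did not move as a block. The 6 genes whose brightest probe set was above 16 in all livers were Hlf, Meis1, Mllt3, Gata2, Myb and Sox4. WT liver 2 was above the 10-liver mean on all 6, and KO liver 4 on 5 of them. KO liver 1, WT liver 3 and WT liver 4 were above the mean on 2 each. KO liver 2 held the lowest value on 2 of the 6 genes and the highest on 1. Both genotypes thus contained livers that were mostly high and livers that were mostly low. Array medians ran from 19.5 to 24.2 in KO livers and from 22 to 25.01 in WT livers before normalization, and each array's mean correlation with the rest ran from 0.966 to 0.971.

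**Figure D3:**
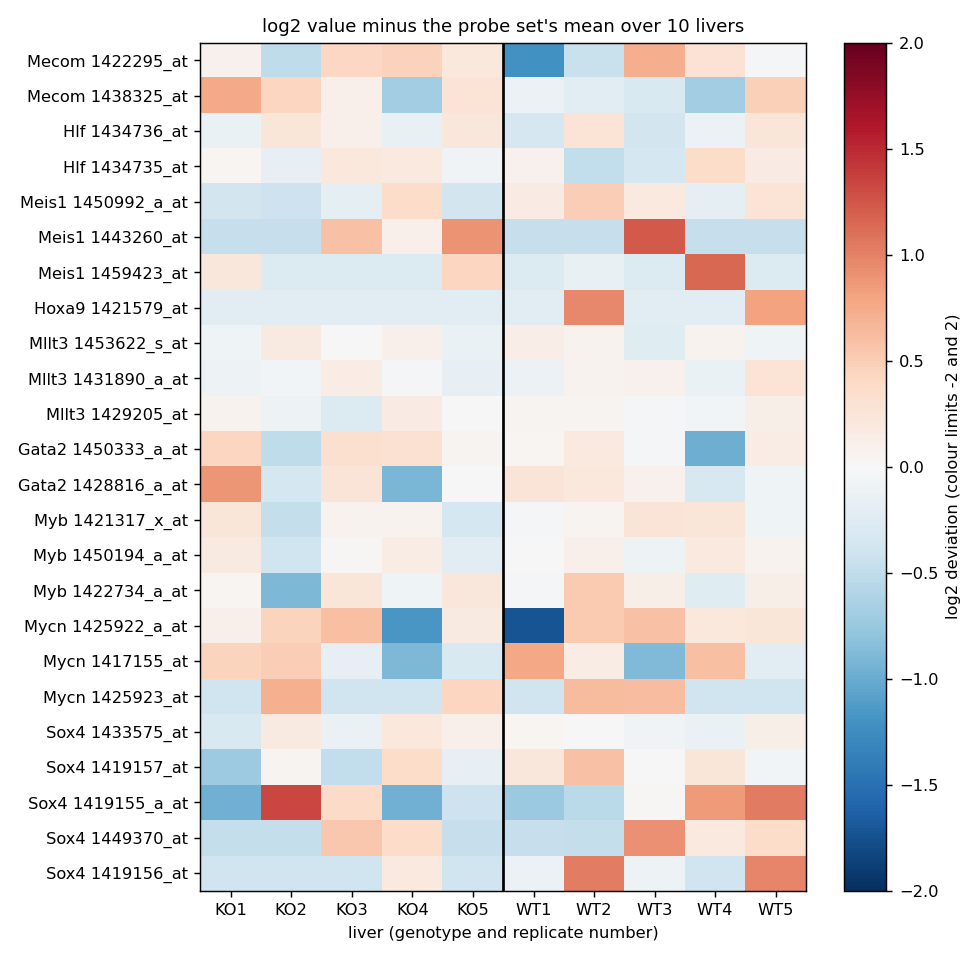
Log2 value of each tested member probe set minus its mean over the 10 livers (colour, red above and blue below the mean), with KO livers left of the black line and WT livers right of it. No column of either genotype is red or blue throughout, and the darkest cell is Mycn 1425922_a_at in WT liver 1, at -1.72.

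The partners and relatives of the members were read from lists of genes that work with them. Among HOX genes and their TALE cofactors, 23 of 27 were on the array, 11 were tested and 0 were called, with 5 differences above 0, 6 below and a median of -0.02. Pbx3, a DNA-binding partner of HOX and MEIS proteins, averaged 282 ± 23.2 in KO livers and 272 ± 28.1 in WT livers (SD, n = 5 each), and Hoxa5 had the lowest unadjusted limma p of the list at 0.122, with a log2 difference of 0.55. Of 19 tested other stem cell transcription factors 0 were called, 7 were above 0 and 12 below, and the median was -0.06. Of these 19, 4 had an unadjusted p under 0.05, a rule that 11.4% of all genes met. Lmo2, the bridging protein of the TAL1 and GATA complex, had the highest mean and the lowest p of that list, at 2448 ± 107 in KO livers and 2783 ± 106 in WT livers (log2 difference -0.19 ± 0.05, SE; limma adjusted p = 0.171). Its KO and WT livers did not overlap, as for 2.76% of all genes tested.

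Genes of the super elongation and MLL complexes, in which MLLT3 works, gave 0 calls among 15 tested, with 7 above 0, 8 below and a median of -0.02. Psip1, which tethers the MLL complex to chromatin, averaged 522 ± 32.9 in KO livers and 635 ± 37.2 in WT livers without overlap (SD, n = 5 each; log2 difference -0.28 ± 0.07, SE; limma adjusted p = 0.103). Ell2, an elongation factor, averaged 1835 ± 206 in KO livers and 1809 ± 274 in WT livers (SD, n = 5 each). The MYC network had 0 calls among 15, with a median of -0.06. Within it Mlx, a partner of MYC-related factors, had a difference of 0.40 (adjusted p = 0.267), and Npm1, a nucleolar protein, one of 0.10 (adjusted p = 0.676).

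Relatives of Gata2, Hlf and Sox4 gave 0 calls among 13, with 7 above 0, 6 below and a median of 0.14. Of these 13, 3 had an unadjusted limma p under 0.05, against 11.4% of all genes tested. Gata1, the erythroid and megakaryocytic relative of Gata2, averaged 985 ± 45.5 in KO livers and 1137 ± 44.2 in WT livers (log2 difference -0.21 ± 0.06, SE; limma adjusted p = 0.151). Its livers did not overlap, whereas those of Gata2 did, and the difference between these genes was not tested. Zfpm1, the cofactor of GATA factors, had a difference of -0.13 (adjusted p = 0.626). Relatives and cofactors of MYB gave 0 calls among 6 with a median of -0.11, with Mybl2 at -0.16 (adjusted p = 0.655) and Cited2 at 0.06 (adjusted p = 0.931).

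Lineage transcription factors, which act downstream of the members as cells commit, gave 0 calls among 14, but 7 of these 14 had an unadjusted p under 0.05 where 11.4% of all genes did. Those above 0 were Cebpb (0.69), Id2 (0.28), Spi1 (0.63) and Irf8 (0.49), known from myeloid and dendritic cells among others. Those below 0 were Bcl11a (-0.31), Gfi1b (-0.30) and Klf1 (-0.16), the last pair erythroid regulators. Cebpb had the smallest p, at 264 ± 22.8 in KO livers and 167 ± 45.8 in WT livers (SD, n = 5 each; log2 difference 0.69 ± 0.15, SE; limma adjusted p = 0.0736). Klf1, the brightest, averaged 3868 ± 155 in KO livers and 4343 ± 320 in WT livers (adjusted p = 0.319). These 7 were named after their values were seen.

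Markers of the cells that these factors come from, and of other cells in the organ, were read beside the members. Over all genes tested, 11.4% had an unadjusted limma p under 0.05. Stem and progenitor surface markers had 0 of 10 tested genes called, with 3 above 0, 7 below and a median of -0.20, and 3 of the 10 had an unadjusted p under 0.05. Those were Slamf1, Angpt1 and Cd48, named after their values were seen, with log2 differences of -1.27, -0.82 and 0.52 (limma adjusted p = 0.0769, 0.389 and 0.413). Angpt1 encodes a secreted protein and Cd48 is not particular to stem cells, so neither value is read as a stem cell level. Slamf1, a surface receptor used to sort stem cells, averaged 30.3 ± 9.04 in KO livers and 72.1 ± 19.7 in WT livers without overlap (SD, n = 5 each). The list's summed intensity was 493 to 582 in KO livers and 565 to 691 in WT livers, with overlap, and no gene of the 11 on the array was under 16 in every liver. Erythroid markers had 0 of 11 called, 7 with an unadjusted p under 0.05 and 10 below 0 (median -0.24), with sums of 33394 to 38555 in KO livers and 34328 to 45146 in WT livers. Monocyte and macrophage markers had 0 of 11 called, 7 with an unadjusted p under 0.05 and 11 above 0 (median 0.42), with sums of 5642 to 6887 in KO livers and 2888 to 6413 in WT livers. Neutrophil markers had 0 of 12 called, 9 with an unadjusted p under 0.05 and 10 above 0 (median 0.89), with sums of 14249 to 26916 in KO livers and 6373 to 28110 in WT livers. The part of any of these lists in the members' values was not tested.

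Endothelial cells, hepatoblasts and lymphoid cells can also hold members such as Sox4 and Mecom. Endothelial markers gave 0 calls among 12 (median 0.07), with sums of 1332 to 1716 in KO livers and 1272 to 1503 in WT livers. Hepatoblast and hepatocyte markers gave 0 among 10 (median 0.09), with sums of 82315 to 99621 in KO livers and 81812 to 93997 in WT livers, so that the labelled tissue was seen in every sample. Stellate and mesenchymal markers gave 0 among 11 (median 0.03). B-lymphoid markers gave 0 among 8 (median 0.28), and T and NK markers 0 among 2, with 3 of their 8 genes on the array under 16 in every liver.

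**Figure D4:**
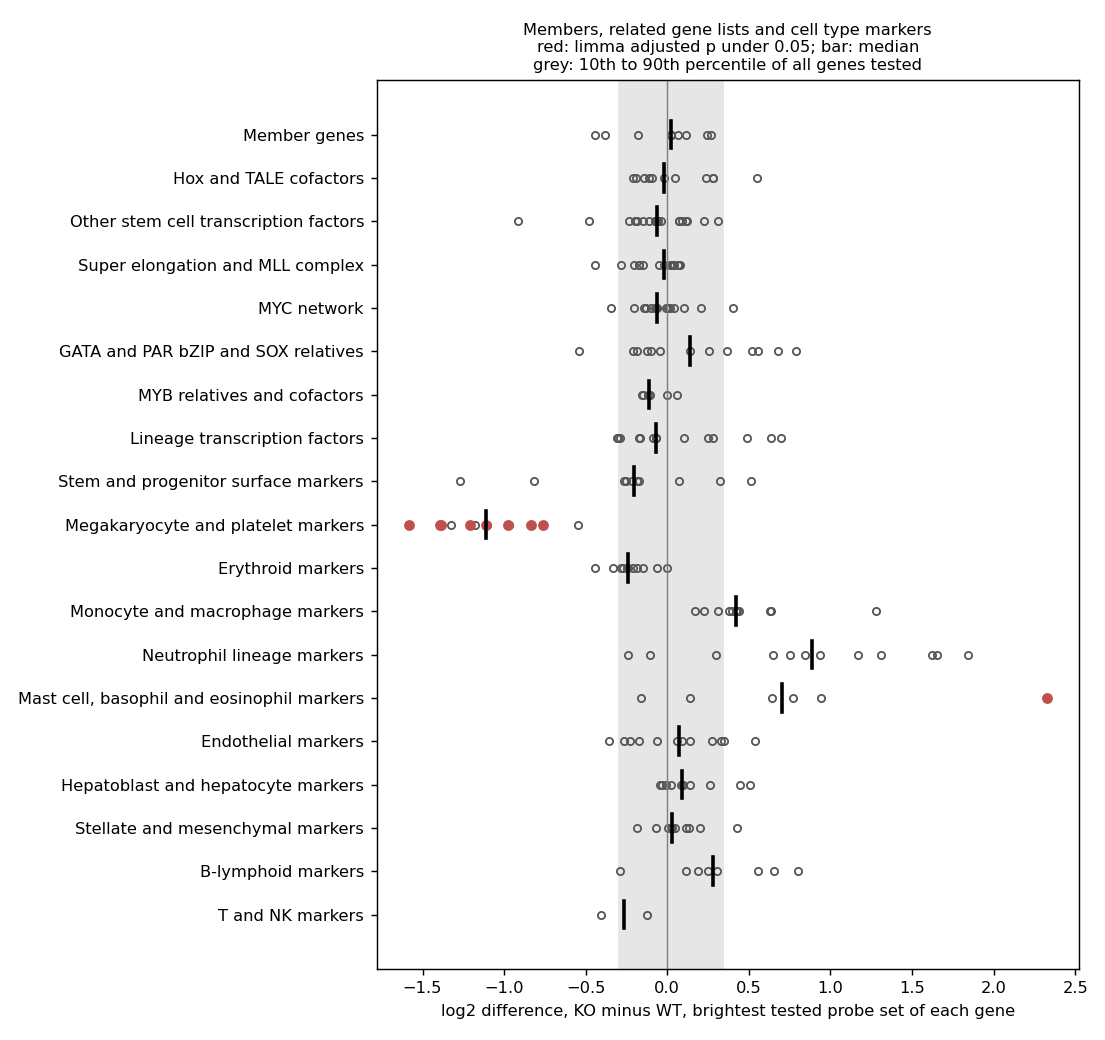
Log2 difference, KO minus WT, of the brightest tested probe set of each gene (x axis) for the members, 7 lists of related factors and 11 lists of cell type markers. Red points passed limma's adjusted threshold of 0.05, bars are medians, and the grey band spans the 10th to 90th percentile of all genes tested, -0.29 to 0.34. The members centre on 0.02 with no red point, while 8 red points lie among the megakaryocyte and platelet markers and 1 among the mast cell, basophil and eosinophil markers.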

How the data were processed

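Each array gave a single linear intensity per probe set, as deposited, and per the labels' protocols the target was biotin-marked cRNA made from total RNA. What software and scaling produced these intensities is not stated in the sources at hand. Of all values, 21.5% were at or below 0.

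Intensities were quantile-normalized on the linear scale, values under 16 were set to 16, and log2 was taken. Probe sets whose mean log2 value exceeded the 40th percentile were tested (27022). KO and WT livers were compared in limma 3.58.1 under R 4.3.3, by lmFit and a trended eBayes with genotype alone in the design. P-values were adjusted by Benjamini-Hochberg across the 27022 probe sets and called at 0.05. Each gene took its tested probe set of highest mean log2 value. Single probe sets also had a two-sided exact permutation test of mean log2 values over the 10 livers. Of the probe sets, 34945 carried 1 symbol, 932 several and 9160 none, and 0 symbols changed on updating. For arrays, the number of livers limits the precision. Each array held its own liver, per the labels.

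All members and their probe sets are accounted for. Of each list of related factors the text names the gene of smallest p and the one of highest mean, plus lineage factors chosen after their values were seen. Members and lists were chosen with earlier results of these data known. Alternatives covered the floor, scaling, filter, variance model, array weights, a replicate block and leaving out each liver. The scripts were tested on simulated data. Promoter sequences are RefSeq's (GRCm38.p6). Python 3.11.15 and matplotlib 3.10.9 drew the figures.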

Additional observations from a re-analysis of the deposited data

Results flagged for a closer look

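Dixon's ratio was computed on log2 values for each tested member probe set within each genotype, where at most 1 of the 5 livers was under 16. It put 4 of 37 groups apart, where chance gives about 1 in 20 groups, or 1.85. Gata2 (1450333_a_at) was low in WT liver 4, at 5.62 with the nearest WT liver at 6.58. Myb (1422734_a_at) was low in KO liver 2, at 5.37 with the nearest KO liver at 6.18. Mycn (1425922_a_at) was low in KO liver 4, at 4.55 with the nearest at 5.82, and in WT liver 1, at 4 (the floor) with the nearest at 5.93.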

How the results depend on the processing

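Over all 20 alternatives the count of member genes called was 0, and the lowest limma adjusted p of a member probe set was 0.477. Of 448 member values, 420 kept their direction and side of the threshold, 28 turned direction and 0 crossed the threshold. Meis1 1450992_a_at ran from -0.52 to -0.25 and Myb 1421317_x_at from -0.26 to -0.08. The count over all genes, 42, was 9 with the lowest positive value as floor, 7 with a floor of 32, 4 without a filter, 6 without trend and 70 with array weights. With 1 liver left out it ran from 10 (without WT liver 4) to 115 (without WT liver 5), and each left-out liver moved it by over 1.5 times: 20, 23, 26, 11 and 16 without KO livers 1 to 5, and 20, 20 and 12 without WT livers 1 to 3. The split of 20 higher and 22 lower was 37 and 20 with median scaling, 1 and 8 with the lowest positive floor, 1 and 6 with a floor of 32, 0 and 4 without a filter, 0 and 6 without trend, 39 and 31 with array weights, 1 and 9 without WT liver 4 and 83 and 32 without WT liver 5. The genotypes share replicate numbers, and the labels do not say whether these mark pairs. Same-numbered livers correlated by 0.03 to 0.13 in their deviations, and 4 of 5 KO livers and 3 of 5 WT livers matched their own number best. A pairing by number is thus not excluded, and the main design left the number out. With the replicate number as a block limma called 121 genes, 74 higher and 47 lower, and 0 members. Sox4 1449370_at turned to 0.066 with the lowest positive floor. With a floor of 32, Meis1 1443260_at gave -0.0567, Gata2 1428816_a_at 0.131, Mycn 1425922_a_at -0.0466 and Mycn 1425923_at 0.0142. Mllt3 1429205_at gave 0.0193 with median scaling, and Mycn 1425922_a_at -0.0534 with array weights. With 1 liver left out, Hlf 1434735_at ran from -0.0311 to 0.186, Mllt3 1453622_s_at from -0.0369 to 0.0578, Mllt3 1429205_at from -0.106 to 0.0027, Gata2 1428816_a_at from -0.281 to 0.165, Myb 1422734_a_at from -0.277 to 0.011, Mycn 1425922_a_at from -0.36 to 0.364, Mycn 1417155_at from -0.418 to 0.0278, Mycn 1425923_at from -0.201 to 0.134 and Sox4 1433575_at from -0.0263 to 0.103. The cause was not tested. Signal at background limits Hoxa9 and Hoxa7.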
